A study of Mus musculus with 8 samples.

Results

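Ifi27 and Ifi27l2a are 2 of the 20408 genes measured in tumour endothelial cells (ECs), and they were chosen by their measured difference between tumours injected with cGAMP and with PBS, since one fell and the other rose. That difference is therefore given as a description, with no test. Both genes were read in cells with at least 1 Pecam1 UMI (a unique molecular identifier, which counts 1 captured mRNA molecule). Such cells numbered 7159 of 8204 and are called ECs here. Pecam1 encodes CD31, the surface protein on which the cells had been sorted after removal of dead and CD45+ cells. Single-cell 3′ libraries came from 4 groups with 2 libraries each, and per the methods with 2 mice each. The spontaneous groups were female MMTV-PyMT mice at 9 weeks, in which the mouse mammary tumour virus promoter drives a viral oncogene in the mammary epithelium. The implanted groups were female mice of 8 to 9 weeks that carried cells of MMTV-PyMT tumours in the mammary fat pad, so their own vessels carry no transgene by design and the tumour cells had passed through a short culture. In each model the tumour was injected with PBS or with 3′3′cGAMP, a cyclic dinucleotide that activates the cytosolic sensor STING, and was sampled 3 h later. The labels give all animals as adult C57BL/6 whereas the methods name FVB mice, so the strain is not settled. Replicates are separate mice by the methods, and p-values measure the spread between such libraries.

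Ifi27 and Ifi27l2a belong to the ISG12 family of small hydrophobic proteins, which are placed in mitochondria and other membranes and are named after interferon-stimulated genes. STING signals through TBK1 and IRF3 to type I interferon, and the interferon receptor then acts on a shared set of target genes. Family members are classed with these targets, and some have been linked with cell death and with the export of NR4A nuclear receptors from the nucleus.

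The members lie side by side on mouse chromosome 12 and are transcribed towards each other. In the GRCm38 (mm10) assembly with GENCODE vM21, Ifi27 (ENSMUSG00000064215.13) spans chr12:103434211-103440239 on the plus strand, and Ifi27l2a (ENSMUSG00000079017.3) spans chr12:103442167-103443680 on the minus strand. The bases between their ends number 1927. Another family member, Ifi27l2b (ENSMUSG00000021208.9), follows at chr12:103450898-103457223 on the minus strand. RefSeq draws a longer Ifi27l2a model on the same assembly, chr12:103433873-103443680, which runs across Ifi27 on the other strand. Whether strand was used in counting is not given in the sources used here, so reads from such a longer transcript could not be told apart from those of Ifi27 without it. RefSeq also lists Ifi27 as a former name of Ifi27l2a. The symbols are used as the deposited tables give them.

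A coding exon of 162 bases is shared by all 3 genes and is printed to show how far the members can be told apart by sequence. It lies at chr12:103439401-103439562 in Ifi27, at chr12:103442832-103442993 in Ifi27l2a, and at chr12:103456358-103456519 and chr12:103451806-103451967 in Ifi27l2b, which holds 2 copies. Each is written 5′ to 3′ on the strand of its gene from the GENCODE transcripts, and capitals mark the 110 positions that are identical in all 4 exons.
Ifi27 exon 3: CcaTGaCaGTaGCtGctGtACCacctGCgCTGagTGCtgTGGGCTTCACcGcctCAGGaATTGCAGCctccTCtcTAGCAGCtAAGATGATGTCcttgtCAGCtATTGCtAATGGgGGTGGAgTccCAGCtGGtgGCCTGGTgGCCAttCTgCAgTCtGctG
Ifi27l2a exon 3: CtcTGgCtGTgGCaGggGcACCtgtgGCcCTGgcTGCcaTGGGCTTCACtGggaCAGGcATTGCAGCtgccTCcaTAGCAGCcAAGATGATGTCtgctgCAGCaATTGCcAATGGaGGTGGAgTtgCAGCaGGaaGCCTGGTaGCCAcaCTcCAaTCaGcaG
Ifi27l2b exon 3: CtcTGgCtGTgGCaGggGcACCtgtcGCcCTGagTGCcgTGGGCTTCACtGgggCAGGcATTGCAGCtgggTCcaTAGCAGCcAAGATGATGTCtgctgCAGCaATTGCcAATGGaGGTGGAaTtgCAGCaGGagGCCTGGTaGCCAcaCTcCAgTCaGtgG
Ifi27l2b exon 6: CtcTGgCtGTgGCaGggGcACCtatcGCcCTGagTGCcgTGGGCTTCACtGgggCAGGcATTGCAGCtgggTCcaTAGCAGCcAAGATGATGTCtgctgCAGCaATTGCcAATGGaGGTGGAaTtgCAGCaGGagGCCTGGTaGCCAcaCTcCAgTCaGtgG
Ifi27 and Ifi27l2a matched at 70.4% of the positions of this exon. Ifi27l2a and the exon 3 copy in Ifi27l2b matched at 92.6%. The longest run of identical bases between any transcripts of Ifi27 and Ifi27l2a was 11 bases, far shorter than between Ifi27l2a and Ifi27l2b, which share a run of 51 bases. A read that lies wholly within that stretch could not be assigned to Ifi27l2a or Ifi27l2b by its sequence. The length and position of the reads were not examined.

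Depth ranged from 7863535 to 16506086 UMIs per library. Replicate 1 of implanted cGAMP stood apart with a median of 3049 UMIs per EC, against 9523 to 14707.5 in the other libraries. The endothelial junction gene Cdh5 had a UMI in 83.2% to 97.3% of ECs and the growth factor receptor gene Kdr in 60.6% to 89.1%. No 2 libraries shared more than 3 cell barcodes. Mural, immune and fibroblast markers were higher after cGAMP in each model, whereas epithelial markers had no shared direction. The summed level of 5 mural cell markers was 64.6 and 353 CPM in ECs of spontaneous PBS, against 502 and 574 CPM in spontaneous cGAMP. It was 25.3 and 50.6 CPM in implanted PBS against 89.7 and 93.0 CPM in implanted cGAMP. The 6 immune markers summed to 10.2 to 12.5 CPM and 23.7 to 28.3 CPM in spontaneous PBS and cGAMP, and to 7.11 to 18.3 CPM and 46.2 to 184 CPM in implanted PBS and cGAMP. The 4 fibroblast markers summed to 12.9 and 63.4 CPM in spontaneous PBS and 97.0 and 97.1 CPM in spontaneous cGAMP. In implanted tumours they summed to 17.8 and 12.9 CPM after PBS and 85.4 and 59.0 CPM after cGAMP. The 5 epithelial markers summed to 356 and 291 CPM in spontaneous PBS and 284 and 307 CPM in spontaneous cGAMP. In implanted tumours these summed to 219 and 143 CPM after PBS and 702 and 120 CPM after cGAMP, with 702 CPM in replicate 1. All markers of these lists were detected in every library.

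Ifi27 was expressed in PBS-treated ECs of both models and was lower in every cGAMP library. Its level, the mean CPM over ECs, was 209 and 202 in spontaneous PBS and 71.2 and 67.2 in spontaneous cGAMP. It was 161 and 188 CPM in implanted PBS and 47.8 and 48.2 CPM in implanted cGAMP. The 4 PBS libraries lay above the 4 cGAMP libraries without overlap. The share of all tested genes that separate without overlap, here and in the comparisons below, was not counted. On the log2(CPM + 1) scale the difference between cGAMP and PBS was -1.55 in spontaneous and -1.84 in implanted tumours. Of the 10424 genes tested, 40 had a more negative difference than Ifi27 in spontaneous tumours and 91 in implanted tumours.

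Ifi27l2a took the opposite course. It was at 23.1 and 23.7 CPM in spontaneous PBS and at 412 and 522 CPM in spontaneous cGAMP. It was at 170 and 146 CPM in implanted PBS and at 736 and 863 CPM in implanted cGAMP. Within each model the groups did not overlap, and the 4 groups were ordered spontaneous PBS, implanted PBS, spontaneous cGAMP, implanted cGAMP from low to high with no overlap between neighbours. The log2 difference between cGAMP and PBS was 4.25 in spontaneous and 2.33 in implanted tumours. A higher difference was found in 19 and 101 of the 10424 tested genes. Without the ECs that carried at least 2 markers of another cell type, the log2 differences were 4.69 and 2.26 for Ifi27l2a and -1.48 and -1.86 for Ifi27. This removed many cells. At least 2 epithelial markers were found in 20.2% to 46.7% of ECs per library, and at least 2 mural markers in 0.64% to 17.6%. The cells kept ranged from 290 of 670 ECs in spontaneous cGAMP replicate 1 to 866 of 1097 in implanted PBS replicate 2.

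**Figure D1:**
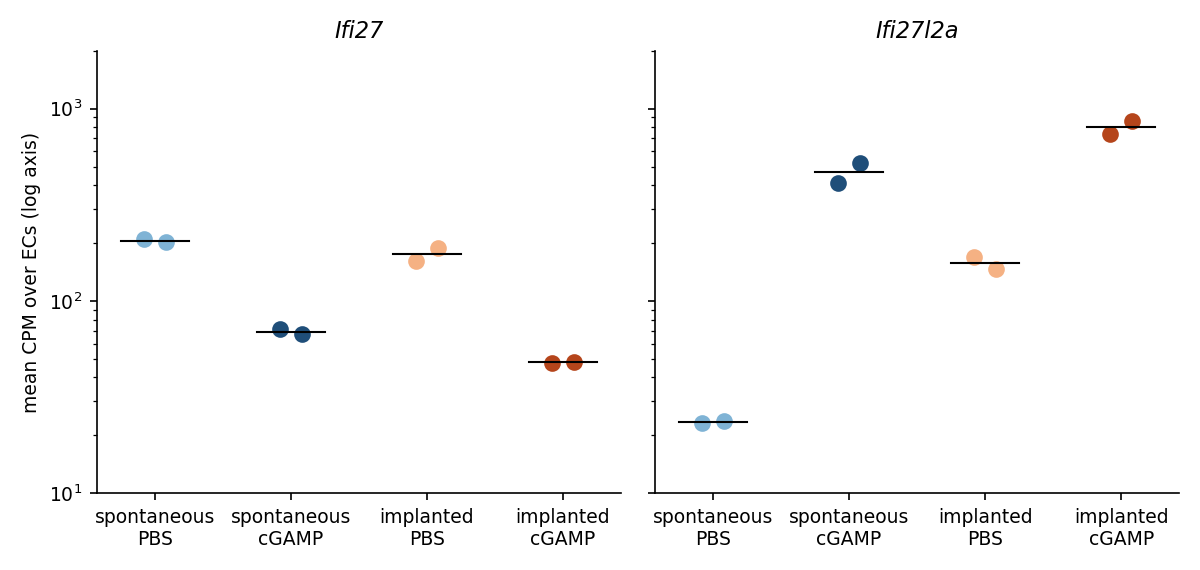
Mean CPM over ECs on a log axis for Ifi27 and Ifi27l2a, with 1 point per library and a line at the mean of the 2 libraries of each group. Ifi27 is between 161 and 209 CPM after PBS and between 47.8 and 71.2 CPM after cGAMP, and Ifi27l2a is lowest in spontaneous PBS at 23.1 and 23.7 CPM.

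The change was visible in the share of cells as well as in the level. An Ifi27 UMI was found in 72.8% and 75.4% of ECs in spontaneous PBS and in 49.4% and 51.1% in spontaneous cGAMP. In implanted tumours the shares were 69.8% and 75.0% after PBS and 25.4% and 41.2% after cGAMP, the lower of these in the shallow library. Since cells differ in depth, each was also thinned to 2000 UMIs, which left out 3.28% to 10.6% of the ECs of 7 libraries and 37.9% of those of implanted cGAMP replicate 1. At this depth Ifi27 was found in 25.7% to 33.6% of ECs after PBS and in 9.56% to 13.0% after cGAMP. In the cells that had an Ifi27 UMI the median level was 188 to 229 CPM after PBS and 80.6 to 106 CPM after cGAMP, a level close to that of 1 UMI in many of these cells.

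For Ifi27l2a, a UMI was found in 4.66% and 6.16% of ECs in spontaneous PBS and in 44.9% and 55.0% in spontaneous cGAMP. The shares in implanted tumours were 17.1% and 16.0% after PBS and 51.3% and 56.5% after cGAMP. At 2000 UMIs they were 2.09% and 2.17% in spontaneous PBS, 8.67% and 7.79% in implanted PBS, and 25.2% to 37.2% in the 4 cGAMP libraries. Few cells held most of the transcripts. The top 10% of ECs carried 70.5% to 85.4% of all Ifi27l2a UMIs after cGAMP and 96.9% to 100% after PBS, where 100% is fixed in spontaneous tumours because under 10% of ECs had any UMI. A single EC of implanted cGAMP replicate 2 held 916 of them. For Ifi27 the top 10% of ECs carried 35.8% to 36.5% of the UMIs after PBS and 44.3% to 65.8% after cGAMP, and no EC held more than 23.

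No sorted cell type is known here to lack either gene, so the background from free RNA was read in the cells without a Pecam1 UMI. These were shallow, with medians of 1105 to 2383 UMIs per cell against 3049 to 14707.5 in ECs. Ifi27l2a had a UMI in 0 of 75 such cells in spontaneous PBS replicate 1, and in 8.22% of 73 in replicate 2. The count of 0 allows a share of cells with a UMI of up to 4.0% at their median of 1514 UMIs and sets no limit on cells that hold the transcript. In spontaneous cGAMP the shares were 38.0% and 34.1%, so Ifi27l2a UMIs were not limited to cells with a Pecam1 UMI. In implanted tumours they were 14.1% and 7.53% after PBS and 51.8% and 42.0% after cGAMP. Ifi27 was found in 26.3% to 43.8% of these cells after PBS and in 5.65% to 40.9% after cGAMP. How much of either share is free RNA, or comes from shallow ECs whose Pecam1 was missed, was not tested.

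**Figure D2:**
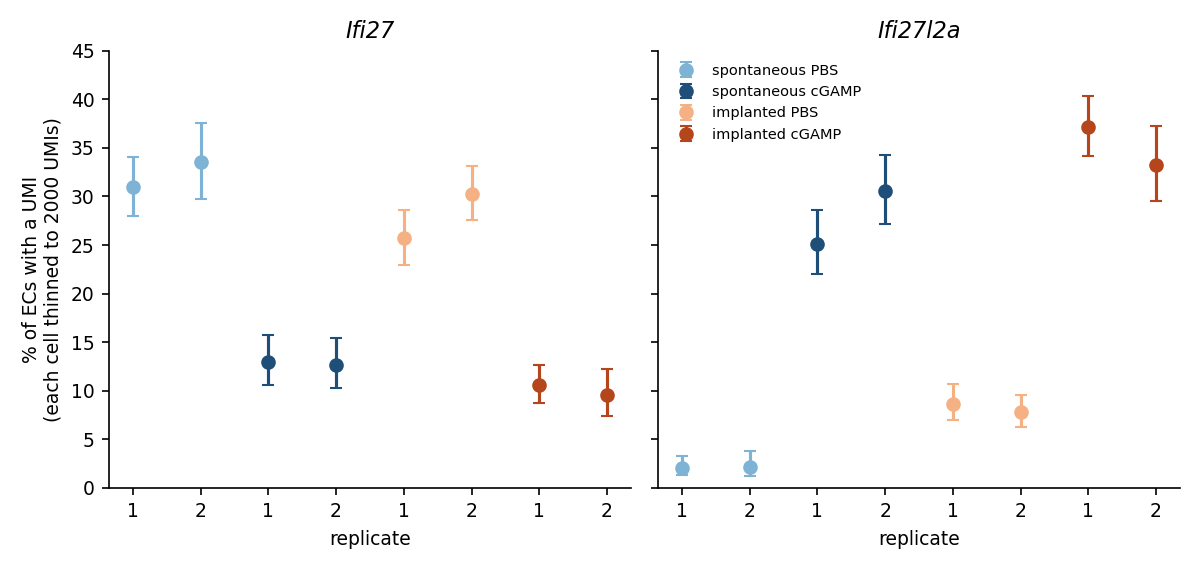
Percentage of ECs with at least 1 UMI of Ifi27 or Ifi27l2a after each cell was thinned to 2000 UMIs, for the 2 replicates of each group, with Wilson 95% intervals that cover counting error only. The share with Ifi27 is lower in the 4 cGAMP libraries, at 9.56% to 13.0%, and the share with Ifi27l2a is higher, at 25.2% to 37.2%.

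ECs with and without an Ifi27l2a UMI were compared in their Ifi27 level within each library. In spontaneous cGAMP the Ifi27 level was 59.1 and 60.2 CPM in ECs with an Ifi27l2a UMI and 81.1 and 75.8 CPM in those without. In implanted cGAMP replicate 1 it was 53.2 against 42.1 CPM, and in replicate 2 it was 44.6 against 52.8 CPM. After PBS the log2 differences lay between -0.13 and 0.12. The cells with an Ifi27l2a UMI were deeper in every library. Their median was 4227.5 UMIs against 2219 in those without in implanted cGAMP replicate 1, and 16622 against 10792 in replicate 2. In spontaneous cGAMP it was 14533 against 11890 and 16451 against 12419.5. Among cells of at least 2000 UMIs, Ifi27 was lower in ECs with an Ifi27l2a UMI in 4 of 4 cGAMP libraries, by log2 differences of -0.45 and -0.13 in spontaneous and -0.07 and -0.44 in implanted tumours. After PBS the differences in such cells were 0.10 and -0.10 in spontaneous and 0.18 and -0.05 in implanted tumours. These values were not tested. After cGAMP the level of Ifi27 in ECs without an Ifi27l2a UMI was thus below the level in any PBS library. Lymphatic ECs, typed below, had an Ifi27l2a UMI in 78.3% to 96.7% of cells after cGAMP. They held 22.1 to 42.8 CPM of Ifi27 there, against 52.6 to 74.3 CPM in other typed ECs. How far the mix of cell types gives the difference between ECs with and without an Ifi27l2a UMI was not tested. Both genes had a UMI in 14.8% to 29.1% of ECs after cGAMP, and in 3.52% to 13.2% after PBS.

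The models were compared within each treatment, a contrast that did not choose the members. Here the fit was limma on log2(mean CPM + 1) over 10424 genes, with Benjamini-Hochberg adjustment over all of them. After PBS, Ifi27l2a was higher in implanted than in spontaneous tumours by 2.70 on the log2 scale (SE 0.13, adjusted p = 2.77e-05 in limma). Of all tested genes, 7.83% passed at an adjusted p of 0.05 in this comparison. After cGAMP the difference was 0.78 (SE 0.13, limma adjusted p = 0.00589), where 13.8% of genes passed. Both implanted libraries lay above both spontaneous libraries at each treatment. Most genes of an interferon list, described with the responses to cGAMP, were also higher in implanted tumours after PBS, 28 of 31 in limma with 0 lower and a median difference of 1.17. After cGAMP 6 of 31 were higher and 0 lower, with a median of 0.28. Ifi27 differed by -0.24 after PBS (SE 0.09), which missed the threshold with a limma adjusted p of 0.153. After cGAMP it was lower in implanted tumours by -0.52 (SE 0.09, limma adjusted p = 0.0088), a call lost without replicate 1 (adjusted p = 0.0595 in limma) or replicate 2 (adjusted p = 0.062 in limma) of spontaneous cGAMP.

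Of the types of vessel cell, lymphatic ECs were where Ifi27l2a stood highest. Typing used marker lists that hold neither member. A cell was placed in a type when its score, the mean over the markers of its level divided by the mean over all ECs, was at least 2 and at least 1.5 times its next score. This placed 879 ECs as arterial, 1069 as postcapillary venous (stalk-like), 814 as tip, 454 as AQP7+ capillary, 449 as proliferating and 480 as lymphatic. A further 3014 had no type and 441 lay near the cut, with a ratio within 0.25 of it, so the types are ranges of a score rather than clusters. In the lymphatic range the median lymphatic score was 10.1 and the next highest median, the venous one, was 0.84. Prox1, the transcription factor that sets lymphatic identity, had a UMI in 38.7% to 100% of these cells and in 0.94% to 7.43% of other typed ECs, and Pdpn in 49.8% to 92.3% against 0% to 1.14%. Both genes are on the lymphatic list that placed the cells, so the score and these shares follow from the typing. The gene Flt4, which is not on that list, had a UMI in 46.1% to 96.7% against 29.3% to 52.0%. The leukocyte gene Ptprc had one in 0% to 9.09% of lymphatic cells and in 0.33% to 6.13% of the others. Lymphatic cells of implanted cGAMP replicate 1 had the lowest shares with Prox1 (38.7%) and Cdh5 (69.6%). They also had the highest share with the myeloid gene Lyz2 (18.9%), at 215 CPM against 67.1 CPM in other typed ECs. In that library, 27 cells with at least 2 immune markers and no Pecam1 UMI held 2503 CPM of Ifi27l2a. Whether immune cells entered the lymphatic type there was not tested.

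Ifi27l2a in lymphatic cells was at 360 and 288 CPM in spontaneous PBS and at 4209 and 4648 CPM in spontaneous cGAMP. In implanted tumours it was at 2171 and 2567 CPM after PBS and at 2728 and 4880 CPM after cGAMP. The other typed ECs of the same libraries held 12.3 to 480 CPM. The lymphatic level was higher in 8 of 8 libraries, by 4.05 ± 0.96 on the log2 scale (SD, n = 8; exact sign-flip permutation test over libraries, two-sided, p = 0.00781, the smallest that 8 libraries allow). Adjusted over both genes and 6 types, the exact p was 0.03125. Lymphatic cells made up 3.11% to 5.4% of ECs in 6 libraries and 14.2% and 10.1% in implanted cGAMP, and they carried 31.6% to 68.7% of all Ifi27l2a UMIs of ECs. The 217 lymphatic cells of implanted cGAMP replicate 1 were shallow, with a median of 1982 UMIs.

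Arterial, venous and tip cells were lower in Ifi27l2a than the other typed ECs of their library, with adjusted exact p-values of 0.0469, 0.03125 and 0.03125. Each of these differences lost its call once lymphatic cells left the comparison, a setting chosen after seeing the data. The log2 difference in tip cells then went from -2.53 to -1.11 (adjusted exact p = 0.156) and in venous cells from -2.11 to -0.57 (adjusted exact p = 0.469), and in arterial cells it turned from -1.39 to 0.22 (adjusted exact p = 0.675). The difference in lymphatic cells was unaffected in size, but its adjusted exact p in that family of 12 was 0.0938.

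Ifi27 showed no type with an adjusted p under the threshold. Arterial cells were higher in 6 of 8 libraries by 0.44 ± 0.50 (SD; exact permutation p = 0.0312, adjusted 0.075). The difference was -0.06 to 0.21 in the 4 PBS libraries and 0.39 to 1.34 in the 4 cGAMP libraries, and whether it differed between treatments was not tested. Lymphatic cells were higher in 2 of 8 with a mean difference of -0.50 ± 0.73 (exact permutation p = 0.102, adjusted 0.152). At an unadjusted exact p of 0.05, arterial cells alone passed. The adjusted exact p for arterial cells was 0.0375 with a score ratio of 2, and also with only cells of at least 2000 UMIs.

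The opposite course of the genes was seen in each vessel type that had 20 cells in every library. The members were chosen for this course in the same ECs, so the split by type describes it and does not test it. Ifi27 was lower in both cGAMP libraries than in both PBS libraries of its model in arterial, venous, tip, AQP7+ and lymphatic cells. Its log2 difference ran from -1.04 in arterial cells of spontaneous tumours to -3.08 in their lymphatic cells, where it went from a mean of 241 to 28.3 CPM. That value rests on 5 and 13 Ifi27 UMIs in 26 and 22 lymphatic cells of spontaneous cGAMP and is poorly set. In implanted tumours it ran from -1.10 in arterial to -2.35 in tip cells. Ifi27l2a was higher without overlap in the same 5 types. In lymphatic cells of implanted tumours the log2 difference was 0.63, from means of 2369 to 3804 CPM, and in those of spontaneous tumours it was 3.78, from 324 to 4428 CPM. In arterial cells it was 3.67 and 4.07 in spontaneous and implanted tumours. Venous cells of spontaneous PBS held 12 and 2 Ifi27l2a UMIs in all, and tip cells 3 and 21, so a log2 difference there is poorly set. Their level after cGAMP was 346 and 352 CPM in venous cells and 194 and 467 CPM in tip cells. Proliferating cells numbered 15 and 13 in spontaneous cGAMP and were left out there.

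**Figure D3:**
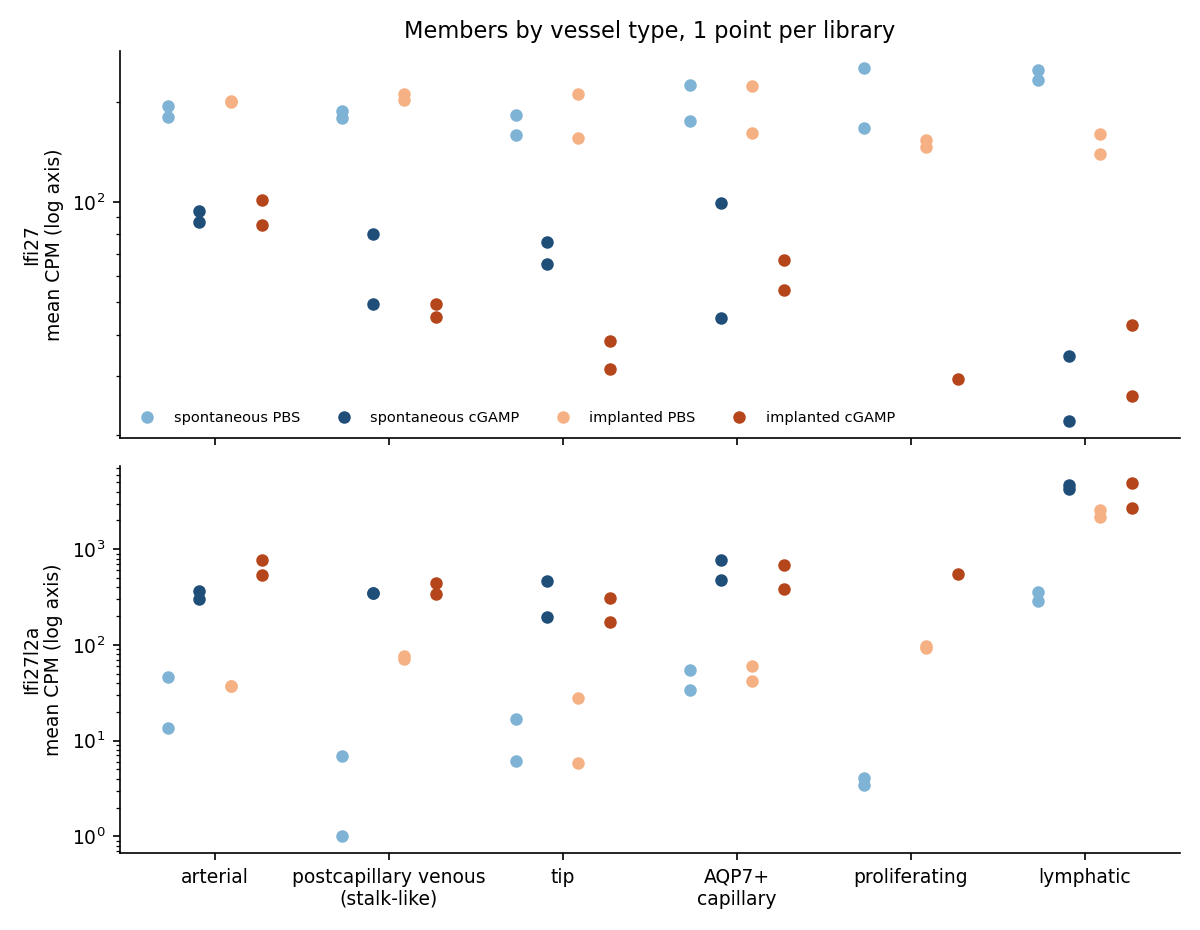
Mean CPM on log axes of Ifi27 (top) and Ifi27l2a (bottom) in 6 vessel types, with 1 point per library with at least 20 cells of the type and colours for the 4 groups. In every library Ifi27l2a is highest in lymphatic cells, at 288 to 4880 CPM, and Ifi27 is lower after cGAMP in the 5 types with 2 libraries in each group.

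Leaving lymphatic cells out also bore on the comparison of the models. When ECs with any UMI of a lymphatic marker were removed, which kept 74.7% to 93.5% of ECs and was chosen after seeing the data, Ifi27l2a was at 11.0 and 11.5 CPM in spontaneous PBS and at 41.4 and 30.2 CPM in implanted PBS. It was at 245 and 389 CPM in spontaneous cGAMP and at 355 and 398 CPM in implanted cGAMP. The difference between models after PBS was then 1.57 (limma adjusted p = 0.0016). After cGAMP it was 0.28 and no longer passed (limma adjusted p = 0.38). Ifi27 stayed at 160 to 207 CPM after PBS and at 49.6 to 73.8 CPM after cGAMP in these cells, and the difference of the models after cGAMP kept its call.

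The members were set beside a list of 32 interferon-stimulated genes, of which 31 could be tested and Mx2 was absent. The list was chosen with earlier results of these data known. It holds Irf7, Isg15, Oasl2 and Phf11d, which the paper names as raised by cGAMP in ECs of both models. Its counts therefore describe the response and are no independent test of it. In spontaneous tumours all 31 rose after cGAMP (limma adjusted p under 0.05), with a median log2 difference of 3.48, where 5.09% of all 10424 genes tested rose. In implanted tumours all 31 rose as well, with a median of 2.43, where 8.6% of all genes rose. The median of all genes tested was -0.10 in both models. Of the called genes 40.2% in spontaneous and 34.3% in implanted tumours rose, against 66.4% and 51.5% with median-of-ratios scaling. The largest differences in spontaneous tumours were in Irf7 (5.85), the interferon-induced transcription factor, and in Ifit3 (5.81) and Ifit1 (5.32), which bind viral RNA and its sensors. In implanted tumours they were in the antiviral GTPase gene Mx1 (5.12), in Oasl1 (4.26) and in Irf7 (4.12). The smallest were in Sp100 (1.37), the RNA sensor gene Ddx58 (1.44) and the kinase gene Eif2ak2 (1.64) in spontaneous tumours, and in Irf9 (0.82), Parp14 (1.18) and Sp100 (1.19) in implanted tumours. No gene of the list fell. Ifi27l2a, which is not on this list, had 9 of the 31 genes above it in spontaneous and 17 in implanted tumours. Ifi27, which was chosen for its fall, had all 31 above it in both.

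**Figure D4:**
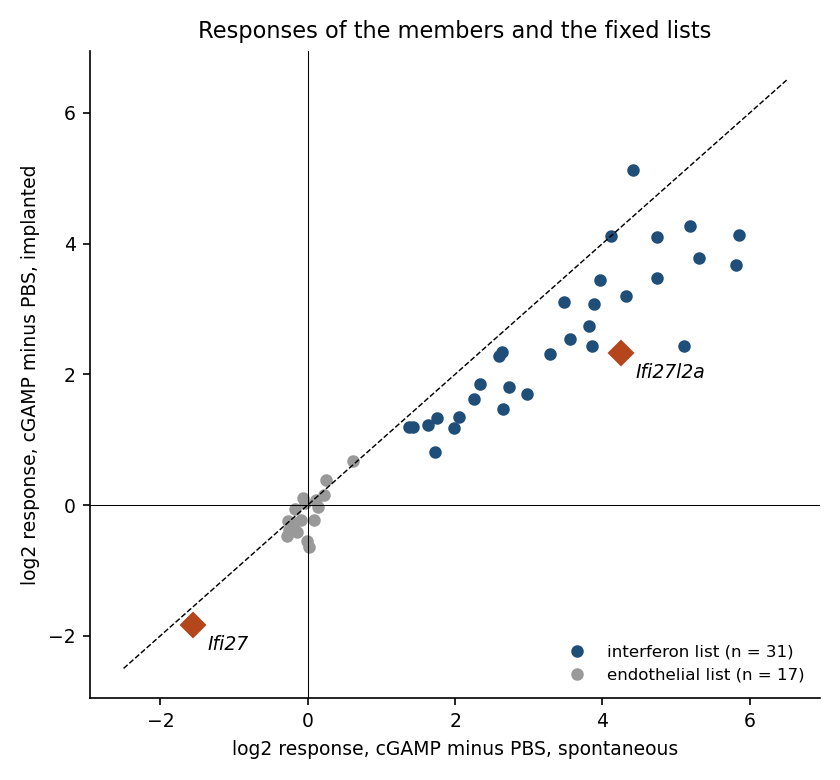
Log2 difference between cGAMP and PBS in spontaneous (x axis) and implanted tumours (y axis) for 31 genes of the interferon list, 17 of the endothelial list and the 2 members (diamonds), with a dashed line where both models are equal. Ifi27l2a sits among the interferon genes at 4.25 and 2.33, and Ifi27 sits below both lists at -1.55 and -1.84. Both members were chosen on these differences.

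Since Ifi27 was lower in ECs after cGAMP, it was also set beside 17 endothelial genes. In spontaneous tumours 2 of 17 rose and 0 fell in limma (2 were lower at an unadjusted p of 0.05), where 7.59% of all genes fell. The 2 were Egfl7, which encodes a secreted endothelial factor (0.62, limma adjusted p = 0.000536), and the endothelial receptor gene Ecscr (0.25, limma adjusted p = 0.0387). In implanted tumours 2 rose and 6 fell (3 with median-of-ratios scaling), where 16.4% of all genes fell. Egfl7 (0.68) and Ecscr (0.39) rose again. The largest decreases were in Tie1 (-0.64), in Cd34 (-0.55), which encodes a surface sialomucin, and in Tek (-0.47). Tie1 and Tek encode the receptors of the angiopoietin system. The list medians were -0.04 and -0.23. The log2 difference of Ifi27, which was chosen for its fall, was more negative than that of each of these 17 genes.

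**Figure D5:**
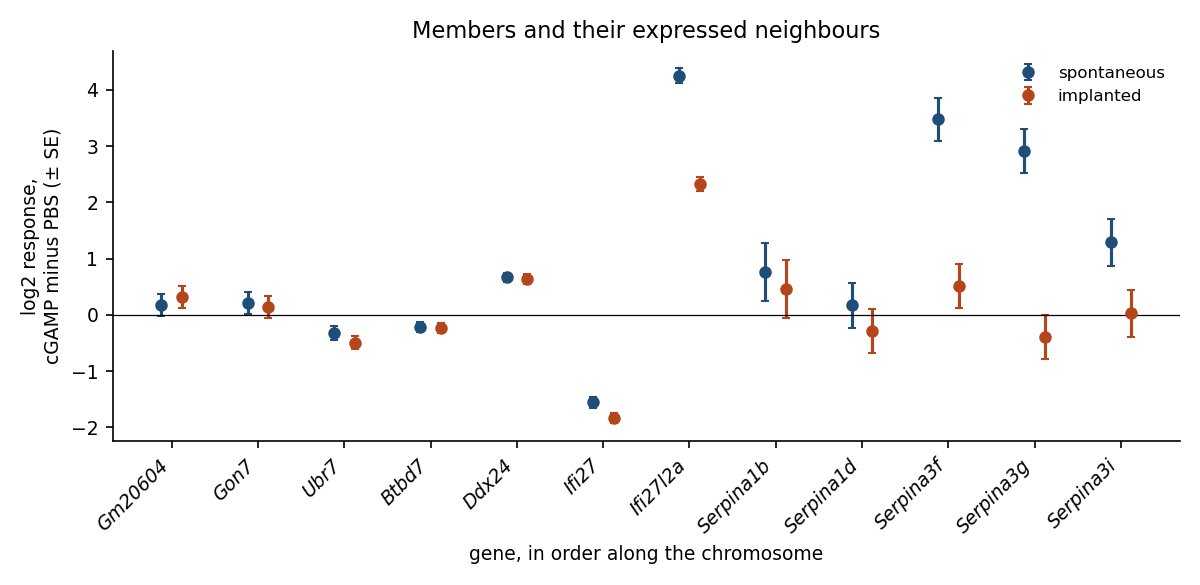
Log2 difference between cGAMP and PBS (± SE of the fit, n = 2 libraries per group) for the members and the nearest protein-coding genes that could be tested, in their order along chromosome 12. Ifi27, which was chosen for its fall, is the only one of the 12 below -1. Its next measured neighbours are Ddx24 at 0.67 and 0.64 and Ifi27l2a at 4.25 and 2.33.

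The genes around the members did not share one direction. Ddx24, an RNA helicase gene and the nearest tested gene on the side of Ifi27, was at 131 and 120 CPM in spontaneous PBS and at 209 and 191 CPM in spontaneous cGAMP. In implanted tumours it was at 145 and 137 CPM after PBS and 223 and 215 CPM after cGAMP. It rose by 0.67 in spontaneous (limma adjusted p = 0.000783) and by 0.64 in implanted tumours (limma adjusted p = 0.000688). On the same side Ubr7 fell by 0.49 in implanted tumours (limma adjusted p = 0.0157), and Btbd7, Gon7 and Gm20604, the last of which overlaps Gon7, did not pass in either model. On the other side Serpina3f and Serpina3g, protease inhibitor genes of a near-identical family whose counts may be split, rose in spontaneous tumours by 3.48 (limma adjusted p = 0.000357) and 2.92 (limma adjusted p = 0.00122). In implanted tumours their log2 differences were 0.52 and -0.39, with limma adjusted p-values of 0.37 and 0.508. Their PBS levels differed between models as that of Ifi27l2a did. Serpina3g was at 5.61 and 6.79 CPM in spontaneous PBS and at 275 and 93.3 CPM in implanted PBS, a difference of 4.49 (limma adjusted p = 0.000252). Serpina1b, Serpina1d and Serpina3i did not pass for treatment in either model.

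Ifi27l2b, the closest relative of Ifi27l2a, was too low to test. It had 0 UMIs in ECs of both spontaneous PBS libraries, which allows shares of cells with a UMI of up to 0.311% and 0.499% for counting error only and sets no limit on cells that express the gene at a low level. It had 13 and 54 UMIs in spontaneous cGAMP, 43 and 27 in implanted PBS and 47 and 46 in implanted cGAMP, at most 3.81 CPM. The UMI total of Ifi27l2a in the cGAMP libraries was 4459 to 10426. No gene named Ifi27l1 was in the tables.

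The NR4A receptors and the export receptor gene Xpo1, which have been linked with ISG12 proteins, did not pass the test in any of the 4 comparisons. Nr4a1 was at 105 to 170 CPM after PBS and at 133 to 202 CPM after cGAMP. The log2 difference of Nr4a2 was -0.42 in both models, with limma adjusted p-values of 0.249 and 0.215. Its difference between models came nearest to the threshold. It was higher in implanted tumours by 0.73 after PBS (limma adjusted p = 0.0836) and by 0.73 after cGAMP (limma adjusted p = 0.0602). Nr4a3 was at 2.68 to 6.42 CPM in all libraries. Xpo1 was at 33.7 to 43.7 CPM, with log2 differences of -0.22 and -0.05.

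The genes whose levels were most like those of each member were found by Pearson's r over the 8 libraries, which share the treatment, so r describes likeness only. For Ifi27l2a they were Psmb10 (r = 0.996), H2-Q7 (0.996), Gm4070 (0.995), H2-K1 (0.995) and Psmb8 (0.995). Psmb8 and Psmb10 encode immunoproteasome subunits, and H2-K1 and H2-Q7 encode MHC class I heavy chains. Psmb8 was at 184 and 180 CPM in spontaneous PBS and at 610 and 456 CPM in implanted PBS, and at 960 to 1210 CPM in the cGAMP libraries. Like Ifi27l2a, these 5 genes were lowest in spontaneous PBS. For Ifi27 the first 4 genes were Nsd2 (0.994), Aldh2 (0.992), Rsu1 (0.989) and Lfng (0.989). Aldh2, the mitochondrial aldehyde dehydrogenase gene, was at 81.4 to 117 CPM after PBS and at 33.5 to 44.8 CPM after cGAMP. Lfng, which encodes a glycosyltransferase that modifies Notch receptors, was at 31.3 to 37.0 CPM after PBS and 15.3 to 20.2 CPM after cGAMP. These 4 were lower after cGAMP in both models, by log2 differences of -0.44 to -1.46, of which the one in Aldh2 was nearest to that of Ifi27. Between the members, which were chosen for opposite responses, r was -0.91.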

How the data were processed

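Endothelial cells from 8 tumours (4 groups of 2, grouped by the labels) were profiled with 3′ chemistry. The authors aligned reads to mm10 with Cell Ranger 3.0.0, normalised in Seurat 3.1.1 and removed cells with under 500 genes or over 10% mitochondrial reads, and genes in under 3 cells. The study's supplement gives a larger and a smaller number of cells for each library than its table holds, so how the deposited cells were chosen is not settled, and shares of cells rest on that choice. The deposited values are natural log, ln(1 + 10000 × UMIs / total UMIs of the cell). UMIs recovered from them were whole for 100% of values (tolerance 0.01), giving 97421522 UMIs. The annotation and strand setting used in counting are not given in the sources used here.

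The level of a gene was its mean CPM over cells with a Pecam1 UMI. Levels were tested on log2(CPM + 1) with limma 3.58.1 (R 4.3.3; trended eBayes, all 8 libraries in one fit), for 10424 genes at 5 CPM or more in at least 2 libraries, with Benjamini-Hochberg adjustment and a threshold of 0.05. This is a test over libraries because cells are not replicates. The fit was tested on simulated data. Vessel types were compared by an exact sign-flip test over libraries with at least 20 cells of the type, adjusted over 12 tests (Python 3.11.15). Doublets were not called. An alternative left out cells with at least 2 markers of a mural, epithelial, immune or fibroblast list. Other alternatives changed pseudocount, filter, scaling, cell set or score ratio, summed UMIs, added a replicate block or left out a library. The members and all lists were chosen with earlier results of these data known. Named genes were the members and their family, the 5 nearest testable protein-coding genes on each side, the 5 genes most like each member (1 of those for Ifi27 is not reported here), the 3 largest and 3 smallest responses of the interferon list in each model and any that fell, the 3 largest called decreases and increases of the endothelial list, and 4 partner genes. Coordinates and exon sequences were read from GENCODE vM21 (GRCm38).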

Additional observations from a re-analysis of the deposited data

How the results depend on the processing

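Each response kept its sign under every setting run. For Ifi27 in spontaneous tumours the log2 difference was -1.44 with a pseudocount of 10 CPM, -1.45 with median-of-ratios scaling and -1.40 over all deposited cells, and in implanted tumours it was -1.66 with a pseudocount of 10 CPM, -1.74 with median-of-ratios scaling, -1.73 in cells with at least 2000 UMIs and -1.73 without lymphatic-marker cells. For Ifi27l2a in spontaneous tumours it was 3.83 with a pseudocount of 10 CPM, 4.69 without cells with other-cell markers and 4.66 without lymphatic-marker cells, and in implanted tumours it was 3.37 without lymphatic-marker cells. With 1 library left out, it was -1.60 to -1.51 and -1.95 to -1.72 for Ifi27 and 4.08 to 4.42 and 2.22 to 2.45 for Ifi27l2a, in spontaneous and implanted tumours. The scaling moved the median of all genes from -0.10 to 0.00 and -0.01, and the share of rises among called genes in the comparisons of models from 43.3% to 67.9% after PBS and from 38.0% to 58.7% after cGAMP. Calls among all genes numbered 1322 (spontaneous response), 2609 (implanted response), 816 (models after PBS) and 1434 (models after cGAMP). With no filter 812, 327 and 784 were called in the spontaneous response and the models after PBS and after cGAMP, with summed UMIs 2839 in the spontaneous response and 1317 in the models after PBS, without cells with other-cell markers 918 in the models after cGAMP, and with a library left out 448, 1265, 212 and 156 at the fewest.

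Between models, Ifi27l2a after PBS passed under all settings run. After cGAMP it lost its call only without lymphatic-marker cells, at 0.28. With 1 library left out, the difference of Ifi27 after cGAMP was -0.56 to -0.48. The 31 interferon genes were called under all settings run. Called endothelial genes in spontaneous tumours went from 2 to 1 with no filter, 4 with summed UMIs, 1 over all deposited cells and 1 without lymphatic-marker cells, and 1 to 3 with a library left out. In implanted tumours they went from 8 to 5 with no filter and 5 with median-of-ratios scaling, and 5 to 9 with a library left out. Ifi27 had 1 called vessel type (arterial) with a score ratio of 2 and 1 in cells with at least 2000 UMIs, against 0. Ifi27l2a had 0 called types with lymphatic cells left out of the comparators, against 4, and 0 to 4 with a library left out, when fewer sign patterns raise the smallest p of the test. Its differences in arterial and AQP7+ cells turned to 0.22 and 0.66 in the former. Those of Ifi27 were -0.088 to 0.031 in venous and -0.0035 to 0.194 in AQP7+ cells with a library left out, and both turned without spontaneous cGAMP replicate 2. The cause of these changes was not tested. Same-numbered libraries did not deviate together (correlations of -0.22 to 0.13). With 2 libraries per group this cannot show whether same-numbered mice were handled together. With the replicate block the differences between models were -0.24 and -0.52 for Ifi27 and 2.70 and 0.78 for Ifi27l2a, and no call of a member changed. The ECs of implanted cGAMP replicate 1 had a median of 3049 UMIs, which limits detection per cell there.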
